A study of Mus musculus with 3 samples.

Results

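The chemokine genes Ccl24, Ccl6 and Ccl9 were followed across the immune cells of the small-intestinal muscularis externa, the muscle layer of the gut wall. They are 3 of the 14148 genes measured, and were chosen from their levels in the monocytes and macrophages (Mφs) of these same libraries, so their levels and changes are given here as descriptions. The data are single-cell RNA counts of sorted Cd45+ immune cells from wild-type C57BL/6J mice of 12 weeks, taken from naïve animals, 24 h after intestinal manipulation, or 72 h after it. Intestinal manipulation is the surgical handling of the bowel that brings on muscularis inflammation. Female mice were used, and several were pooled into the 1 library of each time point. A difference between time points therefore has no replicate check, and no test was possible. All intervals below are 95% intervals of counting error only, without the spread between mice. Those of UMI counts also leave out the spread between cells. Whether such intervals overlap is therefore no test of a difference. The naïve, 24 h and 72 h libraries held 652, 2211 and 1239 cells, with a median of 2134.5, 4669 and 3295 transcript tags (unique molecular identifiers, UMIs) per cell. Each pair of libraries shared 1 cell barcode. The makeup of the libraries differed, and B cell-like cells were 41.1% of the naïve cells.

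Chemokines are small secreted proteins that draw leukocytes along a gradient through G protein-coupled receptors. Those of the CC family carry a pair of adjacent cysteines near the start of the mature protein. Ccl24, or eotaxin-2, binds Ccr3 and attracts eosinophils, and it is known as a product of alternatively activated Mφs. Ccl6 and Ccl9 are neighbouring rodent genes whose proteins act through Ccr1, and both are made by myeloid cells.

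The coding sequences show the family feature and the closeness of Ccl6 to Ccl9. Of each gene, 72 bases of coding sequence around the pair of adjacent cysteine codons are given from the GENCODE vM21 transcripts (GRCm38), with that pair in capitals. Ccl24 has 2 such pairs in its coding sequence, of which the later one is shown.
Ccl24: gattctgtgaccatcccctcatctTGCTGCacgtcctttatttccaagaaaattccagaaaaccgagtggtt
Ccl6: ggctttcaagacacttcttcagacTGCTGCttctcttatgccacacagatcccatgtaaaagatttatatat
Ccl9: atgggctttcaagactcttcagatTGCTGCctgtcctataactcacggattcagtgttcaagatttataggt
Over the whole aligned coding sequence, Ccl6 and Ccl9 were identical at 70.7% of 341 bases. Ccl24 matched Ccl6 at 60.3% and Ccl9 at 63.3% of the aligned bases. The longest run that the Ccl6 and Ccl9 transcripts shared was 25 bases. Whether tags of one were assigned to the other was not tested.

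Ccl6 (ENSMUSG00000018927.3) and Ccl9 (ENSMUSG00000019122.8) both lie on the minus strand of chromosome 11, at 83587882 to 83593087 and 83572919 to 83578636 in GRCm38, with 9245 bases between them. Each has 4 exons in its coding transcript. Ccl24 (ENSMUSG00000004814.10) lies on the minus strand of chromosome 5, at 135569937 to 135573049, with 3 exons. An RNA gene, E230016K23Rik, overlaps Ccl6 on the opposite strand and was not analysed here. Because Ccl6 and Ccl9 had their highest 24 h level in the same cluster of cells, the 250 bases before their transcription starts are printed from the RefSeq promoter table (GRCm38.p6), which covered 2 of the 3 genes. Capitals mark runs of at least 12 bases that occur in both windows.
Ccl6, chr11:83593088-83593337, minus strand: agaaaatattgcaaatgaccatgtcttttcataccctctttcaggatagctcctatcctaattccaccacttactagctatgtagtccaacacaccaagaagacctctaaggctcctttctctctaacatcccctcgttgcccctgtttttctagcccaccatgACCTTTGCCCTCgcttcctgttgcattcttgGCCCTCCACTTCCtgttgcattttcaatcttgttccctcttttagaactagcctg
Ccl9, chr11:83578637-83578886, minus strand: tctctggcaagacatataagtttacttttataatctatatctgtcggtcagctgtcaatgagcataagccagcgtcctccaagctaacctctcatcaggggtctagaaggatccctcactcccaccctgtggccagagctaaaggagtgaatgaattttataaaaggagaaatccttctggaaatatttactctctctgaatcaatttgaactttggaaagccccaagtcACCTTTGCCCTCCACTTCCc
The longest shared run was 13 bases, and the windows were identical at 56.3% of 224 aligned bases. In Ccl9 the shared bases form 1 stretch that ends next to the start, while in Ccl6 they lie in 2 stretches. Short motifs were searched on both strands. The Ccl6 window held none of the 6 searched. The Ccl9 window held 3 TATAAA matches (TATA box, present in 12.3% of 32544 windows), of which a pair overlap, 1 TGANTCA match (AP-1, 6.73%) and 1 match of GGG and CC parted by 5 bases (NF-kB, 46.0%). Neither held GAGGAA (PU.1, 23.4%), TTGNNCAA (C/EBP, 5.62%) or TTC and GAA parted by 4 bases (STAT6, 5.89%). A match is a description of letters and does not show binding.

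Cells were grouped by clustering from which all 36 chemokine and chemokine receptor genes had been left out, and groups were named from fixed markers. The monocyte/Mφ-like class held 139, 1544 and 581 cells in the naïve, 24 h and 72 h libraries. Its markers were highest in that class: Csf1r, the receptor for Mφ growth factor, was at 433 CPM (UMIs of a gene per 1000000 UMIs of the cells) against 28.4 in B cell-like cells, and Fcgr1 at 507 against 6.08. Since the members were chosen from levels in these cells, their shares are a description and no check of the name macrophage chemokines. Of the Ccl24 UMIs of a library, monocyte/Mφ-like cells held 22 of 25 (88%) before injury, 98.9% at 24 h and 94.5% at 72 h. The shares of Ccl6 were 86.1%, 96.5% and 81.1%. Those of Ccl9 were 87.5%, 97.0% and 83.6%. These cells made up 21.3%, 69.8% and 46.9% of the cells in the same order. The largest other holder in the naïve and 72 h libraries was the DC-like class, with 10.4% and 12.9% of the Ccl6 UMIs and 9.81% and 14.0% of the Ccl9 UMIs.

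**Figure D1:**
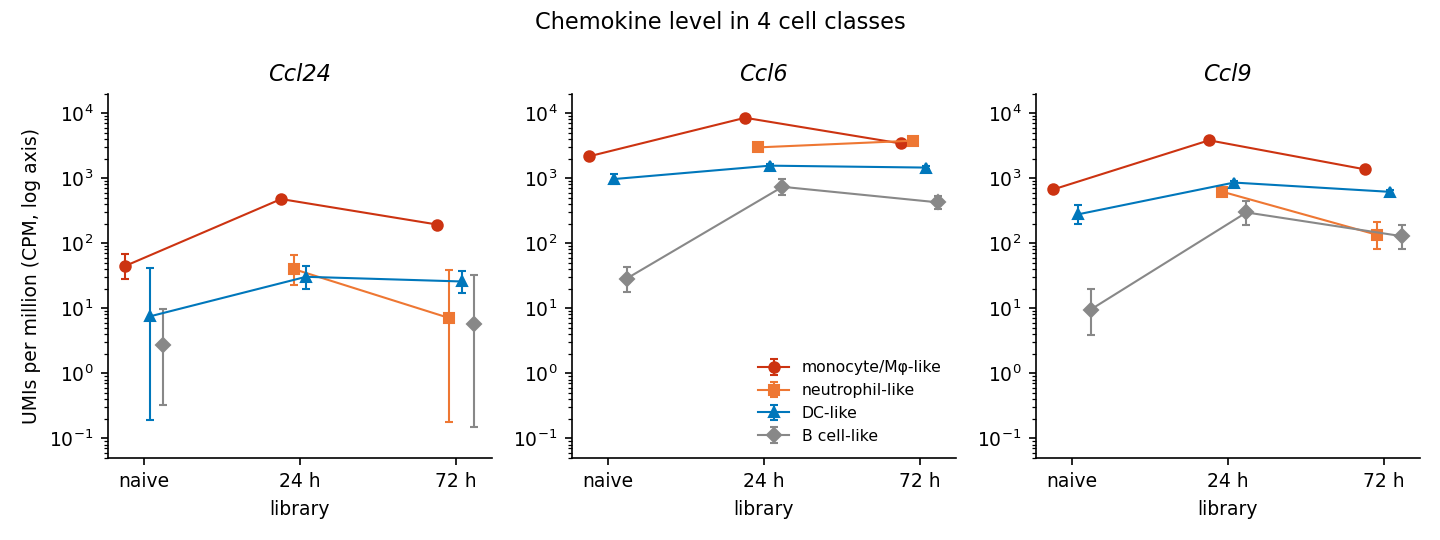
CPM (log axis) of each chemokine in 4 cell classes by library, shown where a class had at least 20 cells; points are summed UMIs of 1 library and bars are 95% Poisson intervals (counting error only). Monocyte/Mφ-like cells stood above the other classes at every time except for Ccl6 at 72 h, where neutrophil-like cells were at 3767 CPM against 3408; the B cell-like point for Ccl24 at 24 h is left out because it is 0.

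In monocyte/Mφ-like cells Ccl24 was sparse in the naïve library and higher at both later times. Its level was 44.6 CPM (95% interval 28.0 to 67.6, 22 UMIs) in the naïve library, 477 CPM (463 to 491) at 24 h and 193.5 CPM (178 to 209.5) at 72 h. The 24 h level was 10.7 times the naïve one (7.05 to 17.1), and the 72 h level was 0.406 times the 24 h one (0.372 to 0.442). Leaving out the 1 cell with most Ccl24 in each library gave ratios of 13.4 and 0.289. Ccl24 was found in a minority of these cells even at its height: 9.35% of naïve, 46.6% of 24 h and 26.7% of 72 h cells had a UMI. With every cell thinned to 1500 UMIs, which left out 18, 76 and 41 shallower cells, the shares were 5.79%, 26.7% and 14.1%.

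Ccl6 was at 2166 CPM (2038 to 2300) in naïve, 8469 CPM (8409 to 8530) in 24 h and 3408 CPM (3343 to 3473) in 72 h monocyte/Mφ-like cells. Of the 24 h cells 99.9% had a Ccl6 UMI, but so had 76.5% (58.8 to 89.25) of the 34 B cell-like cells at 24 h. The 24 h level of Ccl6 was 3.91 times the naïve one (3.68 to 4.16) and its 72 h level 0.402 times that at 24 h (0.394 to 0.411). After thinning, 59.5%, 99.2% and 91.1% of the monocyte/Mφ-like cells had a Ccl6 UMI, against 2.39%, 82.6% and 28.3% of B cell-like cells. The part of free RNA (described below) in these shares was not tested.

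Ccl9 had the same order of libraries, at 669 CPM (599 to 746), 3815 CPM (3775 to 3855) and 1364 CPM (1323 to 1405). Its ratios were 5.70 (5.11 to 6.37) for 24 h over naïve and 0.358 (0.346 to 0.369) for 72 h over 24 h. At 72 h both neighbours were still above their naïve levels over the whole class, Ccl6 by 1.57 times and Ccl9 by 2.04 times. In the Cd206+ subset (described below) the same ratios were 0.768 (0.678 to 0.873) and 0.940 (0.759 to 1.18). No subset had at least 20 cells in both the naïve and the 24 h library. The part of subset makeup in the class ratios was not tested. Thinned cells with a Ccl9 UMI made up 37.2%, 93.7% and 70.2%, against 1.435%, 26.1% and 13.0% of thinned B cell-like cells.

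All 3 genes were thus at least 2-fold higher at 24 h than in the naïve library. Of 2815 genes that reached 50 CPM at one of these times, 11.4% were, and 8.38% were at least 2-fold lower. All 3 were at least 2-fold lower at 72 h than at 24 h, as were 4.93% of 2696 genes, while 3.78% were at least 2-fold higher. The members were chosen from levels in these cells, so nothing is read from their counts. The same 24 h library enters both ratios.

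The naïve levels of Ccl6 and Ccl9 rested on few cells. A total of 12 naïve cells belonged to the Timp2+ subset (described below), and these held 503 of the 1068 naïve Ccl6 UMIs (47.1%) and 124 of the 330 Ccl9 UMIs (37.6%), but 1 of the 22 Ccl24 UMIs. Without them the naïve level was 1283 CPM for Ccl6 and 468 CPM for Ccl9. The ratio of 24 h to naïve then became 6.60 (6.08 to 7.18) for Ccl6, 8.15 (7.11 to 9.40) for Ccl9 and 10.0 (6.53 to 16.2) for Ccl24. The richest naïve cell alone held 175 Ccl6 UMIs, and without it the Ccl6 ratio was 4.58.

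Within the monocyte/Mφ-like class, 10 subclusters were found, of which 7 carried a name from fixed markers. Ly6c+ cells are the monocytes that enter from blood, and Ccr2+ int cells carry markers of their transition into Mφs. Cd206+ (Mrc1) and Timp2+ Mφs were mostly in the 72 h library, with 251 and 125 cells. Fabp5+ and Arg1+ cells were mostly in the 24 h library, with 436 and 47 cells, and Cx3cr1+ Mφs in the naïve one, with 73 cells. Igkc and Jchain, which are antibody genes of plasma cells, were among the leading genes of the Cx3cr1+ subset, and Igha and Jchain among those of the Fabp5+ subset. Mφ cluster 2, led by Ltc4s, Tppp3, Rhoc and Arg1, had too few fixed markers for a name. Mφ cluster 3 was shallow, with a median of 2133 UMIs, and Mφ cluster 9 was led by the B cell genes Cd79a and Ebf1. Groups under 20 cells in a library are not ordered below.

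Ccl24 was highest in Arg1+ cells, whose naming gene Arg1 encodes the arginine-degrading enzyme of alternatively activated Mφs. Arg1 was, however, among the leading genes of Mφ cluster 2 and not among those of the Arg1+ subset. The latter was led by Mmp12, Cxcl3, AA467197 and Slc7a11. It had 6 fixed markers of the Arg1+ name at least 2-fold above other cells, while Mφ cluster 2 had 1. Arg1 levels by subset are not given here, so Arg1 may also be raised in Arg1+ cells. Whether Arg1+ cells were alternatively activated was not tested. At 24 h the Ccl24 level in Arg1+ cells was 1502 CPM (1352 to 1664, 366 UMIs in 47 cells). Fabp5+ cells followed with 606 CPM (579 to 634) and Mφ cluster 2 with 601 CPM (561 to 643), whose intervals overlapped. Mφ cluster 3 was at 412 CPM, Mφ cluster 9 at 345 CPM, Ccr2+ int cells at 279 CPM and Ly6c+ cells at 233 CPM, and in this order the intervals of each and the next overlapped. A single Arg1+ cell held 102 of the 366 UMIs, and without it the Arg1+ level was 1127 CPM (995 to 1272), still the highest. A few cells carried this level: 8 of the 47 Arg1+ cells held 319 of the 366 UMIs. Among cells thinned to 1500 UMIs, 32.6% (19.1 to 48.5) of Arg1+, 34.5% (30.02 to 39.2) of Fabp5+ and 33.7% (28.0 to 39.8) of Mφ cluster 2 cells had a Ccl24 UMI. Because the Fabp5+ subset was large, it held 44.7% of the Ccl24 UMIs of these cells at 24 h, against 8.53% for Arg1+ cells.

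At 72 h the first place of Arg1+ cells for Ccl24 rested on 1 cell. The 22 Arg1+ cells reached 2939 CPM (2568 to 3348), but 185 of their 226 UMIs (81.9%) came from a single cell, and without it they were at 597 CPM (428 to 810). Mφ cluster 2 was at 722 CPM (544 to 940) in 20 cells, and without its own richest cell at 559 CPM (399 to 761). Without these cells the intervals of the first and the second subset thus overlapped. That cell also held 30.5% of all monocyte/Mφ Ccl24 UMIs at 72 h, and without it the level of the whole class was 134.8 CPM in place of 193.5. Below them came Mφ cluster 3 (368 CPM), Ccr2+ int (158 CPM), Timp2+ (148.5 CPM), Cd206+ (71.7 CPM) and Ly6c+ (33.4 CPM, 6 UMIs). The Cd206+ and Timp2+ Mφs, which together made up most of the 72 h class, thus had less Ccl24 per UMI than the Mφ subsets of the 24 h library.

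**Figure D2:**
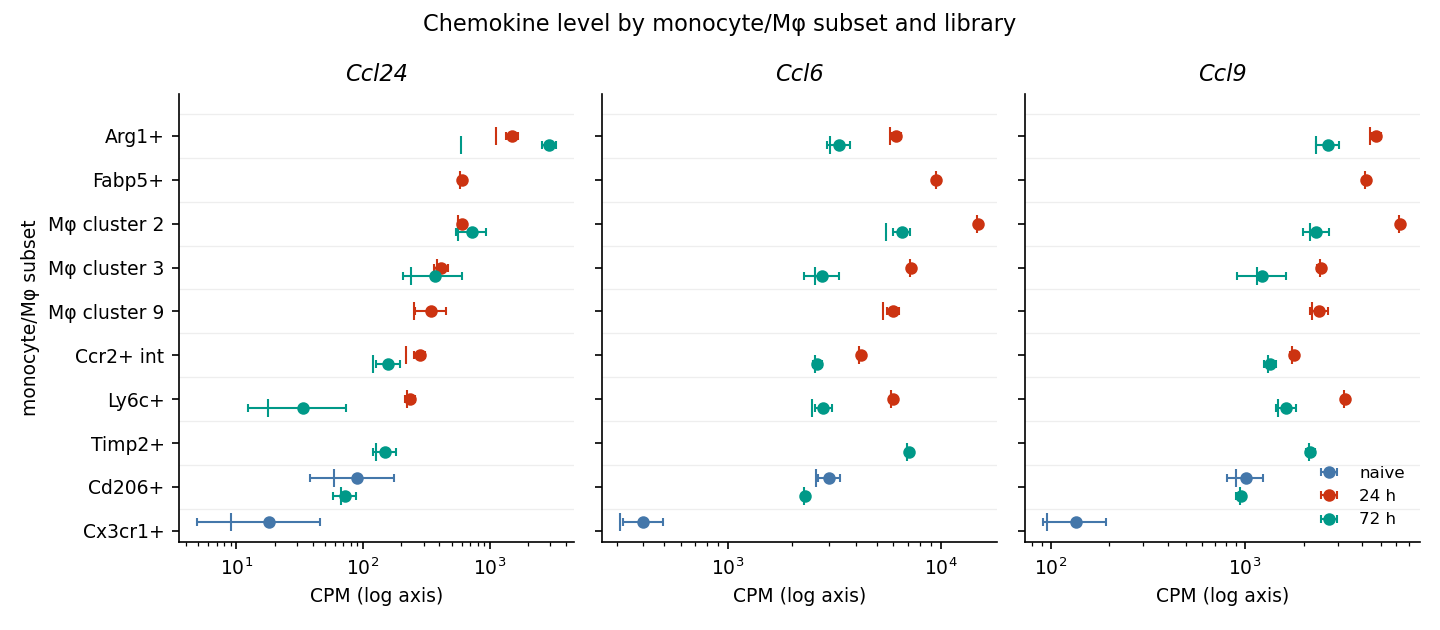
CPM (log axis) of each chemokine in the monocyte/Mφ subsets with at least 20 cells in a library; circles are summed UMIs with 95% Poisson intervals and the upright ticks are the level without the 1 cell richest in that gene. In Arg1+ cells at 72 h the Ccl24 tick lies at 597 CPM while its circle lies at 2939 CPM, while for Ccl6 in the same cells they lie at 3007 and 3329 CPM.

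Ccl6 had another order. At 24 h it was highest in Mφ cluster 2, at 14970 CPM (14770 to 15170), then in Fabp5+ cells at 9522 CPM and Mφ cluster 3 at 7253 CPM. Arg1+ cells (6159 CPM), Mφ cluster 9 (5972 CPM) and Ly6c+ cells (5967 CPM) had overlapping intervals, and Ccr2+ int cells were lowest at 4244 CPM. At 72 h the Timp2+ Mφs led with 7136 CPM (6928 to 7350), and their interval overlapped that of Mφ cluster 2 at 6554 CPM (5992 to 7155). Timp2+ cells thus held 41.4% of the monocyte/Mφ Ccl6 UMIs at 72 h, although they were 21.5% of the cells. The Cd206+ Mφs were at 2301 CPM (2220 to 2384), the lowest value among the subsets with at least 20 cells, with an interval that overlapped that of Mφ cluster 3 at 2772 CPM (2285 to 3333). The 19 Cx3cr1+ cells at 72 h had 608 CPM (467 to 778). The 12 naïve Timp2+ cells had 9544 CPM (8728 to 10420).

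Ccl9 shared the first place of Ccl6 at 24 h. The authors report Ccl9 and Srgn as high in their own Arg1+ cells. Whether those are the cells of the Arg1+ subset here was not tested. Mφ cluster 2 had 6271 CPM (6141 to 6403), Arg1+ cells 4727 CPM, Fabp5+ cells 4189 CPM and Ly6c+ cells 3253 CPM. The order of Arg1+ and Fabp5+ cells was not stable: without the richest cell of each they were at 4413 (4150 to 4688) and 4148 CPM (4077 to 4220), with the stricter cell filter at 4263 and 4289 CPM, and at clustering resolution 1.2 at 4207 and 4919 CPM. Mφ cluster 3 (2465 CPM) and Mφ cluster 9 (2409 CPM) overlapped, and Ccr2+ int cells were lowest at 1784 CPM. At 72 h Arg1+ cells (2666 CPM), Mφ cluster 2 (2325 CPM) and Timp2+ cells (2167 CPM) came first, with overlap between each and the next. Cd206+ Mφs again had the lowest value among these subsets, at 949 CPM (897 to 1003), with an interval that overlapped that of Mφ cluster 3 at 1227 CPM (910.5 to 1617).

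In the naïve gut the Cx3cr1+ Mφs, which were 52.5% of the naïve monocyte/Mφ-like cells, had little of any of the 3. Their level was 17.98 CPM for Ccl24 (4 UMIs), 400 CPM (321 to 492) for Ccl6 and 135 CPM (91.0 to 192.5) for Ccl9. The 25 naïve Cd206+ Mφs had 88.8 CPM of Ccl24 (8 UMIs), 2995 CPM of Ccl6 and 1010 CPM of Ccl9. Cd206+ cells were therefore 7.49 times above Cx3cr1+ cells for Ccl6 (5.87 to 9.63) and also 7.49 times for Ccl9 (4.91 to 11.7).

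Ccl6 and Ccl9 were also lower at 72 h than at 24 h inside the subsets. In the 5 subsets with at least 20 cells in both libraries, the ratio of 72 h to 24 h for Ccl6 was 0.382 in Mφ cluster 3, 0.438 in Mφ cluster 2, 0.471 in Ly6c+, 0.541 in Arg1+ and 0.621 in Ccr2+ int cells. For Ccl9 it lay between 0.371 in Mφ cluster 2 and 0.758 in Ccr2+ int cells. Every one of these 10 intervals lay below 1. Ccl24 was mixed: its ratio was 0.143 (0.0523 to 0.314) in Ly6c+ cells and 0.565 (0.442 to 0.716) in Ccr2+ int cells, but 0.892 in Mφ cluster 3 and 1.202 in Mφ cluster 2 (0.988 without the richest cell of each library) with intervals that included 1, and in Arg1+ cells it was 1.96 (1.65 to 2.32) with and 0.529 (0.371 to 0.738) without the richest cell of each library. Cd206+ Mφs could be compared between 72 h and naïve, where the ratios were 0.807 (0.394 to 1.92) for Ccl24, 0.768 (0.678 to 0.873) for Ccl6 and 0.940 (0.759 to 1.18) for Ccl9. The Ccl24 ratio rested on 8 naïve UMIs, and it was 2.24 (0.743 to 11.0) when clustered with fewer principal components.

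Single cells differed in how the 3 genes were spread. At 24 h the richest 10% of the monocyte/Mφ-like cells held 70.6% of the Ccl24 UMIs, but 33.2% of the Ccl6 and 33.8% of the Ccl9 UMIs. Cells with at least 10 Ccl24 UMIs were 128 of 1544 (8.29%) at 24 h, and they held 65.5% of the Ccl24 UMIs. Their median depth was 7830 UMIs against 5931 for all. They numbered 66 in the Fabp5+ subset (15.1% of it), 24 in Mφ cluster 2 (8.70%), 17 in Ly6c+ (5.40%), 9 in Ccr2+ int (4.95%) and 8 in Arg1+ cells (17.0%). At 72 h there were 9 such cells and in the naïve library 0 of 139. In cells thinned to equal depth, those with more Ccl6 UMIs also had more Ccl9 UMIs among monocyte/Mφ-like cells, with a Pearson correlation on the log scale of 0.616 in 121 naïve, 0.579 in 1468 24 h and 0.395 in 540 72 h cells. The correlations of Ccl24 were 0.223 with Ccl6 and 0.156 with Ccl9 at 24 h. Thinned 24 h cells held a mean of 0.723 Ccl24 UMIs, against 12.3 of Ccl6 and 5.40 of Ccl9, so the pairs are not compared. The class values also mix subsets. Within subsets the correlation of Ccl6 with Ccl9 ran from -0.0893 in Arg1+ cells at 72 h to 0.543 in Arg1+ cells at 24 h. Cells of 1 library are no replicates, so these are descriptions without a test.

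Outside the Mφs, free RNA has to be set beside each value, since droplets take up transcripts of lysed cells. B cell-like cells, which are not known to make these chemokines, held a mean of 0.0784, 1.68 and 1.46 Ccl6 UMIs per cell in the naïve, 24 h and 72 h libraries and 0.0261, 0.677 and 0.440 Ccl9 UMIs. These values were in the same order, lowest in the naïve and highest in the 24 h library, as those of the monocyte/Mφ-like cells, which held 7.68, 49.4 and 18.4 Ccl6 UMIs and 2.37, 22.2 and 7.35 Ccl9 UMIs per cell. Ccl24 was found in 0 of 34 B cell-like cells at 24 h, which at 3 counts allows a level of up to 38.7 CPM. At 72 h a single B cell-like cell held 41 of the 73 Ccl6 and 13 of the 22 Ccl9 UMIs, and without it the means were 0.653 (0.447 to 0.922) and 0.184 (0.0840 to 0.349). Median depths were 1653.5 UMIs for these B cell-like and 5931 for the monocyte/Mφ-like cells at 24 h.

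Neutrophil-like cells carried Ccl6 above that level. They had 2.93 (2.76 to 3.10) Ccl6 UMIs per cell at 24 h and 4.91 (4.50 to 5.34) at 72 h, against 1.68 (1.27 to 2.17) and 1.46 (1.14 to 1.84) in B cell-like cells, although their median depth was lower, at 888 and 1248 UMIs. As CPM the values were 2965 (2799 to 3139) and 3767 (3455 to 4101). Their 72 h level was thus 1.27 times that at 24 h (1.15 to 1.41), opposite in direction to the 0.402 of the monocyte/Mφ-like cells, and the difference was not tested. The larger of both neutrophil-like clusters alone had 3097 and 4356 CPM. The monocyte/Mφ markers, all 12 detected, summed to 4.85 and 6.42 UMIs per neutrophil-like cell at 24 h and 72 h, against 5.06 and 15.1 in B cell-like cells (8.63 at 72 h without the cell named above) and 127 and 256 in monocyte/Mφ-like cells. Per cell, Ccl9 in neutrophil-like cells was not above the B cell-like mean, with 0.615 (0.541 to 0.696) UMIs per cell at 24 h and 0.174 (0.105 to 0.272) at 72 h, against 0.677 (0.429 to 1.02) and 0.440 (0.276 to 0.666) in B cell-like cells, or 0.184 at 72 h without the richest cell. As CPM, Ccl9 at 24 h was at 622.5 (548 to 705) in neutrophil-like and 297 (188 to 445) in B cell-like cells. At 72 h it was at 134 (80.55 to 209) and 128 (79.9 to 193) CPM. The 24 h order thus depended on the measure. Ccl24 had 16 UMIs in 405 neutrophil-like cells at 24 h and 1 in 109 at 72 h.

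At 72 h the ratio of the neighbours differed most in neutrophil-like cells. It is compared here between cells and is not read as a relative level of the genes. Monocyte/Mφ-like cells had 3.24 (2.86 to 3.67), 2.22 (2.19 to 2.25) and 2.499 (2.41 to 2.59) Ccl6 UMIs for each Ccl9 UMI in the naïve, 24 h and 72 h libraries. B cell-like cells had 3.0, 2.48 and 3.32, with intervals that held the monocyte/Mφ value of the same library. In neutrophil-like cells the ratio was 4.76 (4.15 to 5.48) at 24 h and 28.2 (17.9 to 47.1) at 72 h. The 72 h ratio rested on 535 Ccl6 and 19 Ccl9 UMIs, and these Ccl9 UMIs per cell were not above the B cell-like mean. Cluster 8, which carried neutrophil markers but was led by Gm12840, Ptgs2, Siglecf and Mmp9 and was left without a class name, had 5.71 (2.53 to 15.1) at 24 h, an interval that held the neutrophil-like value, and 2.29 (1.55 to 3.45) at 72 h. Its 24 h ratio rested on 40 Ccl6 and 7 Ccl9 UMIs. Cluster 8 held 1.25 (0.893 to 1.702) Ccl6 UMIs per cell at 24 h, against 1.68 (1.27 to 2.17) in B cell-like cells. Its 0.427 Ccl6 UMIs per cell at 72 h lay below those of B cell-like cells, also without the richest of these. Among Mφ subsets the lowest ratios were in Arg1+ cells, at 1.30 (1.21 to 1.41) and 1.25 (1.04 to 1.51) for 24 h and 72 h, and the highest at 72 h was in Timp2+ Mφs, at 3.29 (3.10 to 3.50).

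**Figure D3:**
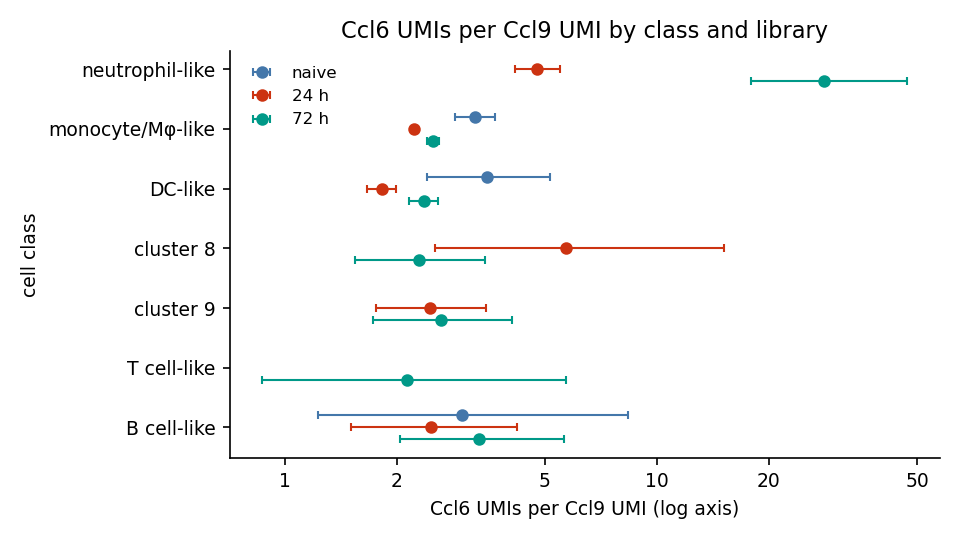
Ccl6 UMIs per Ccl9 UMI (log axis) by cell class and library, for groups of at least 20 cells and at least 20 UMIs of both genes together; bars are exact 95% intervals of counting error. The neutrophil-like ratio of 28.2 at 72 h, which rests on 19 Ccl9 UMIs, lies to the right of every other interval.

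DC-like cells held more Ccl6 and Ccl9 per cell than B cell-like cells. They had 4.3, 10.64 and 10.65 Ccl6 UMIs per cell in the naïve, 24 h and 72 h libraries, and 1.23, 5.85 and 4.51 Ccl9 UMIs. In the naïve library 1 cell held 61 of the 129 Ccl6 UMIs, and without it the mean was 2.34 (1.82 to 2.97). In CPM, Ccl6 was at 968 (808 to 1150), 1554 (1472 to 1640) and 1452 (1384 to 1523), and Ccl9 at 278 (195.5 to 383), 854 (793 to 918.5) and 615 (571 to 662). B cell-like cells had 28.5, 735 and 423 CPM of Ccl6 and 9.51, 297 and 128 CPM of Ccl9. Median depths were 4179, 6831 and 6956 UMIs in DC-like and 1819.5, 1653.5 and 2148.5 UMIs in B cell-like cells. The DC-like 72 h to 24 h ratio was 0.935 (0.869 to 1.01) for Ccl6 and 0.720 (0.649 to 0.799) for Ccl9. Mφ markers were also present in this class: 11, 12 and 12 of the 12 on the list were detected in the 3 libraries, and they summed to 10790, 4563 and 7671 CPM, against 50680, 21830 and 47550 CPM in monocyte/Mφ-like cells. Their part in the DC-like values was not tested. Ccl24 stood at 30.4 CPM at 24 h and 25.7 CPM at 72 h in DC-like cells, where 1 cell held 17 of the 30 UMIs.

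Ccr1, the receptor through which Ccl6 and Ccl9 act, was highest in neutrophil-like cells, at 1013 CPM (916 to 1116) at 24 h and 1063 CPM (900.5 to 1247) at 72 h. Cluster 8 had 798 and 465 CPM. Monocyte/Mφ-like cells had 176.5, 188 and 182 CPM in the 3 libraries, with overlapping intervals. T cell-like cells held 1 Ccr1 UMI in all. Ccr3, the receptor of Ccl24 and a defining receptor of eosinophils, was nearly absent, with 5 UMIs in monocyte/Mφ-like cells, 3 in neutrophil-like cells, 2 in cluster 9, which had T cell and innate lymphoid genes, and 0 in cluster 8. For cluster 8 a count of 0 allows, at 3 counts, a level of up to 12.0 CPM. No cluster was named from the eosinophil markers, of which Il5ra, Epx and Ear1 were not measured. In cluster 8 Siglecf was at 375 CPM, while Prg2 and Alox15 were, like Ccr3, at 0 UMIs. The authors, however, annotated an eosinophil cluster among these cells from Siglec-f, Cxcr4 and Pim1. They counted eosinophils among the main populations at 72 h. Cluster 8 had 204 of its 251 cells at 72 h, and whether it holds eosinophils was not tested. Of 13 chemokine receptors listed, 10 were measured. Of the 5 at 50 CPM or more in naïve or 24 h monocyte/Mφ-like cells, none was 2-fold higher at 24 h and Cx3cr1 was lower, and of 6 at 24 h or 72 h, Cxcr4 and Cx3cr1 were 2-fold higher at 72 h. Over all genes at 50 CPM, 11.4% were higher and 8.38% lower by this fold at 24 h, and 3.78% were higher at 72 h.

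Among all measured chemokine ligands, 26 in number, 14 had at least 50 CPM in the naïve or 24 h monocyte/Mφ-like cells. Of these, 6 were at least 2-fold higher at 24 h: the 3 members, the monocyte attractants Ccl2 (5.55 times) and Ccl7 (3.57 times), and the interferon-induced Cxcl10 (2.96 times). Of 13 ligands at 50 CPM in the 24 h or 72 h cells, these same 6 were at least 2-fold lower at 72 h, with ratios from 0.0708 for Cxcl10 to 0.406 for Ccl24. Another 4 were at least 2-fold lower at 24 h, namely Cxcl16, Ccl5, Ccl3 and Cxcl14, and Cxcl16 and Ccl5 were at least 2-fold higher again at 72 h. Cxcl2, Ccl12, Ccl8 and Ccl4 passed neither fold at 24 h. Over all genes at 50 CPM, 11.4% were at least 2-fold higher and 8.38% at least 2-fold lower at 24 h. At 72 h, 4.93% were at least 2-fold lower than at 24 h and 3.78% higher. The median log2 ratio of the list was 0.36 for 24 h over naïve and -0.59 for 72 h over 24 h, beside 0.20 and -0.17 for all genes at 50 CPM. The 3 members were chosen from these levels and enter the counts and medians, so nothing is read from either.

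**Figure D4:**
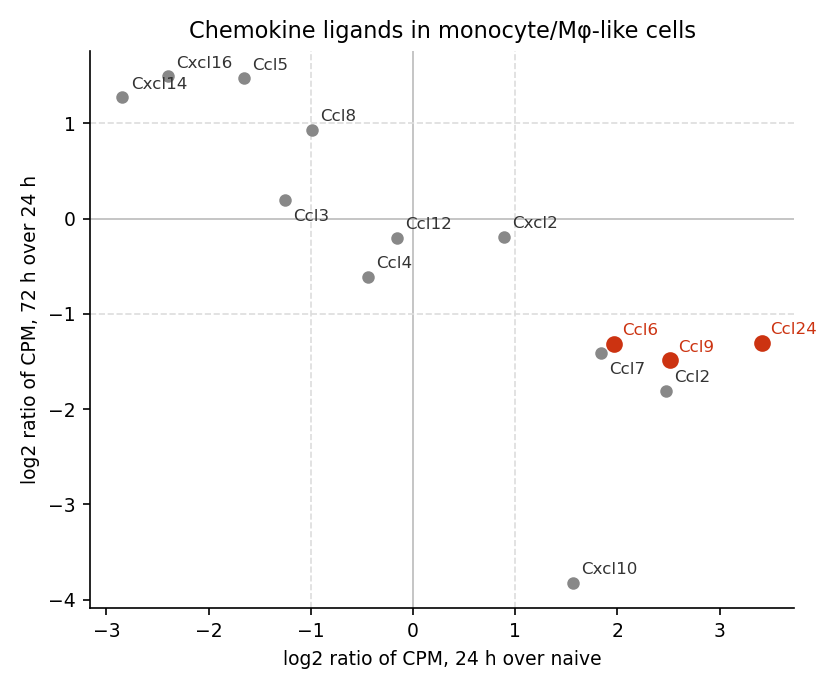
Log2 ratio of CPM in monocyte/Mφ-like cells, 24 h over naïve against 72 h over 24 h, for the 14 chemokine ligands with at least 50 CPM in a library; dashed lines mark 2-fold and the members are in red. Ccl24, Ccl6 and Ccl9 lie with Ccl2, Ccl7 and Cxcl10 in the lower right, higher at 24 h and lower at 72 h; both axes share the 24 h library, so the slope of the points is not a result.

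The genes of alternative activation, the programme that Ccl24 is known for, differed in direction. Of 15 on the list, 10 had at least 50 CPM in the naïve or 24 h cells. Arg1 was 7.39 times and Chil3, a chitinase-like lectin, 20.7 times higher at 24 h than in the naïve library, and both were lower again at 72 h (0.358 and 0.122 times the 24 h level). Retnla, a secreted resistin-like protein, the lectin Mgl2 and the haemoglobin receptor Cd163 were lower at 24 h, at 0.0280, 0.0506 and 0.112 times the naïve level. At 72 h, Retnla, Mgl2, Mrc1 and Ear2 were at least 2-fold above 24 h. Over all genes at 50 CPM, 11.4% were at least 2-fold higher and 8.38% at least 2-fold lower at 24 h. For 72 h against 24 h these shares were 3.78% and 4.93%. The median log2 ratio of the list was -0.21 for 24 h over naïve and 0.76 for 72 h over 24 h. Ccl24 thus had the time order of Arg1 and Chil3 and not that of Retnla or Mgl2. Type 2 cytokines, of which Il4 and Il13 are known to induce this programme, were sparse: of 7 listed, 5 were measured and none reached 50 CPM in monocyte/Mφ-like cells. The UMIs of Il4, Il5 and Il13 were mostly in cluster 9, with 10, 8 and 8.

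The genes most like each member by level across 33 cluster-by-library groups differed between them (Pearson correlation of log2(CPM + 10), 3705 genes). The groups share libraries, depth and free RNA, so the correlations are descriptions. These groups, and the 16 below, include Arg1+ cells at 72 h, where 1 cell held 185 of the 226 Ccl24 UMIs. They also include naïve Cx3cr1+ cells, with 4 Ccl24 UMIs. No correlation was taken without that 1 cell. For Ccl24 the most like gene was Lpl, which encodes lipoprotein lipase and is a marker of the Fabp5+ subset (0.951), then BC005537 (0.878), Arg1 (0.873), Anxa4 (0.869) and Myof (0.864). For Ccl6 they were Ifitm3 (0.957), Ccl9 (0.948), Wfdc17 (0.925), Gda (0.916) and Alox5ap (0.908), and for Ccl9 they were Ccl6 (0.948), Ctsl (0.924), Ifitm3 (0.923), Psap (0.907) and Nupr1 (0.902). Within the 16 monocyte/Mφ-like groups alone, Ccl24 was again most like Lpl (0.951), followed by Mif (0.923), Timp1 (0.906), Txn1 (0.876) and Il1rn (0.871). There Ccl6 and Ccl9 were each other's most like gene (0.946). Next for Ccl6 were Arg1, Mrpl20, Ppdpf and Timm13 (0.901 to 0.898), and for Ccl9 they were Aprt, Capg, Nedd8 and Ap3s1 (0.941 to 0.926).

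On either side of the members lay genes of mostly low level. Ccl5, the gene on the other side of Ccl9, was at 168 CPM in naïve, 53.4 in 24 h and 148 CPM in 72 h monocyte/Mφ-like cells, lowest at the time when Ccl9 was highest. Ccl5 was also a leading gene of the T cell-like cluster and of Mφ cluster 9. T cell-like cells were 19.9%, 0.271% and 2.26% of the cells in the same order. The part of their free RNA in these Ccl5 values was not tested. Rpl9-ps1, on the other side of Ccl6, stayed between 3.56 and 6.07 CPM. Wfdc17, a small secreted protein and among the genes most like Ccl6, lies 110904 bases from it on the same chromosome and was at 1651, 3040 and 2656 CPM. Beside Ccl24, the nearest measured genes were Hip1 (38.5, 46.6 and 43.1 CPM) and Rhbdd2 (4.06, 6.67 and 4.47 CPM), while Ccl26 was not analysed here.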

How the data were processed

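Libraries of sorted Cd45+ cells were made with the 10x v2 3' kit. Per the labels and methods, the authors ran Cell Ranger 3.0.2 with the GRCm38 (mm10) genome. In Seurat they then dropped cells under 200 genes, or whose mitochondrial share was over 10%. The deposited values are raw UMI counts of 14148 genes in 4102 cells. A tag marks the 3' end of a transcript, so counts were not scaled by length, and levels are compared within a gene.

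Total UMIs were 1865221, 10542346 and 5246731 in the naïve, 24 h and 72 h libraries. CPM is the summed UMIs of a gene per 1000000 summed UMIs of a group of cells. Intervals are exact Poisson (levels), Clopper-Pearson (shares) and conditional Poisson (ratios), at 95%. Cells were clustered in Seurat 5.3.0 (R 4.3.3) with 2000 variable genes, 30 principal components and resolution 0.8 (20 components for monocytes/Mφs). A name needed at least 3 fixed markers 2-fold above other cells. Clusters whose 10 leading genes held as many markers of another class as of their own stayed unnamed, a rule set after the clusters were seen. Doublets were kept: Scrublet (scanpy 1.11.5) called 16 cells by itself, and removing the 54 highest scores was an alternative. Ratio intervals and fold counts were run on simulated Poisson counts, the model that the intervals assume. These counts hold no spread between cells, so the run is no check of the intervals under such spread. The members and lists were chosen with earlier results of these data known. Named genes were the members, chemokine ligands at 50 CPM or more, Ccr1 and Ccr3, the 5 genes most alike, and neighbours in GENCODE vM21. Examples from the other lists were chosen after their values were seen. Alternatives were other cell filters, clustering settings, chemokine genes kept, doublets removed, means over cells, and thinning to 1500 UMIs. Leaving out the richest cell or the naïve Timp2+ cells, and the Cd206+ ratio under each clustering, were added after seeing the data.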

Additional observations from a re-analysis of the deposited data

Results flagged for a closer look

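Ccl6 went in opposite directions in neutrophil-like and monocyte/Mφ-like cells between 24 h and 72 h. Its ratio of 72 h to 24 h was 1.27 in neutrophil-like cells (405 and 109 cells) and 0.402 in monocyte/Mφ-like cells (1544 and 581 cells). The difference between the ratios was not tested, since each time point is 1 library.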

How the results depend on the processing

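No ratio between libraries over the whole monocyte/Mφ-like class changed direction under the alternatives run. Within subsets, the Ccl24 ratio of 72 h to 24 h turned from 1.96 to 0.529 in Arg1+ cells and from 1.202 to 0.988 in Mφ cluster 2 without the richest cells, and the Cd206+ Ccl24 ratio of 72 h to naïve lay between 0.807 and 2.24 over the clusterings. Ranges over the alternatives were 9.27 to 13.4 (Ccl24), 3.89 to 6.60 (Ccl6) and 5.67 to 8.15 (Ccl9) for 24 h over naïve, and 0.289 to 0.425, 0.398 to 0.418 and 0.352 to 0.368 for 72 h over 24 h. Values outside the counting interval were as follows. Without the naïve Timp2+ cells the first ratio was 6.60 for Ccl6 and 8.15 for Ccl9, without the richest cells it was 4.58 for Ccl6, with the stricter cell filter 4.196 and with means over cells 4.64. The second ratio was 0.289 for Ccl24 without the richest cells and 0.418 for Ccl6 with means over cells. The share of UMIs in monocyte/Mφ-like cells at 24 h was 99.2% (Ccl24), 97.4% (Ccl6) and 97.5% (Ccl9) with the stricter filter, 96.7% and 97.2% for Ccl6 and Ccl9 at resolution 0.5, 96.7% and 97.2% with fewer principal components, and 96.8% and 97.3% with 3000 variable genes. At 72 h the share of Ccl6 was 80.2% with chemokine genes in the clustering, and with high doublet scores removed it was 79.6% for Ccl6 and 82.3% for Ccl9. Thinning to 1500 UMIs gave shares of cells with a UMI of 26.7% and 14.1% for Ccl24 at 24 h and 72 h, 59.5%, 99.2% and 91.1% for Ccl6, and 37.2%, 93.7% and 70.2% for Ccl9. Among 225 subset levels over the alternatives, 74 lay outside the counting interval and 10 moved by over 1.5 times, and the cause was not tested. The Arg1+ level at 72 h could be computed under 4 alternatives, since fewer than 20 cells were left under the others or the subset was not named. No paired analysis was possible because each time point has 1 library. In naïve monocyte/Mφ-like cells 22 Ccl24 UMIs were counted in 139 cells, which widens that interval.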
